A study of Mus musculus with 2 samples.

Results

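Capillary endothelial cells were examined in single-cell RNA sequencing of mouse hearts, with 1 library per condition. Sham hearts were set beside hearts subjected to transverse aortic constriction (TAC), in which a tied suture narrows the aorta and raises the pressure the heart pumps against. By the labels all mice were C57BL/6. The TAC mice were males, 8 weeks old at surgery, whose aortic arch was ligated with a 27G needle as a guide, and the constriction lasted 6 weeks. The Sham mice had the operation without constriction according to the sample labels, while the design text calls them uninjured, and their age and sex are not given in the labels. Cells of 3 to 5 hearts were combined into each library, so that a library holds several animals but stands for its condition alone. No difference between the libraries therefore has a replicate check, and no test was made. Values are set side by side with exact 95% intervals that cover counting error only.

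The heart holds one of the densest capillary beds of the body, and capillary endothelial cells form its single-cell lining between blood and cardiomyocytes. They take up fatty acids from lipoproteins at the vessel wall through GPIHBP1, which anchors lipoprotein lipase, CD36 and the carrier FABP4, and pass them on to the muscle. Their identity is kept by VEGF and angiopoietin receptors, by VE-cadherin junctions and by transcription factors of the ETS family, while NOTCH ligands mark arteries and NR2F2 marks veins.

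A barcode was counted as a capillary endothelial cell by its raw UMIs (unique molecular identifiers, each standing for 1 captured mRNA molecule). It had at least 200 detected genes and less than 0.6% of its UMIs in the cardiomyocyte genes Ryr2 and Myh6. The endothelial genes Flt1, Adgrl4, Cyyr1, Kdr, Cdh5 and Pecam1 together had 3 or more UMIs and at least 3 times the sum of the fibroblast genes Pdgfra, Col1a2 and Col3a1, and likewise of the macrophage genes F13a1, Mrc1 and Adgre1. The endocardial (Npr3, Tmem108, Smoc1), arterial (Gja5, Sema3g, Sox17, Stmn2) and lymphatic (Reln, Mmrn1, Ccl21a, Prox1) sums were each 1 or less. The rule selected 1542 of 9934 Sham barcodes (15.5%, exact Clopper-Pearson interval 14.8 to 16.2) and 1826 of 9931 TAC barcodes (18.4%, 17.6 to 19.2), which is 3368 of 19865 in all. Of the barcodes that passed the endothelial part of the rule, 1829 in Sham and 2295 in TAC, the rest were mostly 151 and 262 endocardial and 86 and 121 arterial cells, each with 2 or more UMIs of their own marker sum. These shares rest on 1 cell suspension per condition.

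The genes of the rule have high levels in these cells because they chose them. Flt1, the VEGF receptor that binds VEGFA most tightly, was at 2523 UMIs per 1000000 UMIs of the Sham capillary cells and 2738 of the TAC cells, and Kdr, the main signalling receptor, was at 393 and 420. Cdh5, which encodes VE-cadherin, was at 487 and 534. At the edge of the rule, 80 Sham and 73 TAC cells had an endothelial sum of exactly 3, while 70 and 61 barcodes with a sum of 2 met all its other conditions. Cardiomyocyte UMIs lay at 0.5 to 0.6% in 62 and 42 cells, and 33 and 19 barcodes stayed outside with 0.6 to 0.7%. An arterial sum of 1 was carried by 198 and 225 members.

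The depth was low and alike in both libraries. The capillary cells held 2048768 Sham and 2566901 TAC UMIs, with a median of 1159.5 and 1229.5 UMIs per cell and 786.5 and 840 detected genes. Their median mitochondrial share was 0.846% in Sham and 0.486% in TAC, and the median share of Ryr2 and Myh6, which is RNA of cardiomyocytes, was 0.162% and 0.128%. The nuclear RNA Malat1 took 5.15% and 5.37% of the UMIs. The 18S ribosomal sequence Rn18s-rs5 took 0.904% and 0.439% (ratio 0.49), more than 1.5-fold less in TAC, and its ratio was 0.58 to 0.80 in pericytes, macrophages, cardiomyocytes and fibroblasts. Scrublet, which finds likely doublets by simulation, marked 61 Sham (3.96%) and 71 TAC (3.89%) capillary cells, and these were kept. The libraries shared 32 barcode sequences, 1 of which was a capillary cell in both.

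Promoter sequences of 5 genes that mark these cells are shown because ETS factors bind a short core that can be read from the letters. Flt1 and Kdr belong to the rule, and Rgcc, Timp4 and Car4 do not. The latter are 3 marker genes with a single promoter entry. They were chosen, among the marker genes considered for display, for a high capillary level over all other barcodes, and are not a ranking of all marker genes. Each is the stretch of 250 bases before the RefSeq start of the gene in build GRCm38.p6. Each is written 5′ to 3′ on the strand of the gene, with the ETS core forms CAGGAA and CCGGAA, searched on both strands, in capitals. They lie on the minus strand at chr5:147726012-147726261, chr5:75978456-75978705, chr14:79301636-79301885 and chr6:115252206-115252455 and on the plus strand at chr11:84957504-84957753.
Flt1: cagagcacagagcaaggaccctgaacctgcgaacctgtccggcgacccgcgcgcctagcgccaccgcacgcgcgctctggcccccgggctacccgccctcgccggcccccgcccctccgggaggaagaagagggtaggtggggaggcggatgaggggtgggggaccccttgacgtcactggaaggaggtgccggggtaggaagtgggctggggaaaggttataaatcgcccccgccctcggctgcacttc
Kdr: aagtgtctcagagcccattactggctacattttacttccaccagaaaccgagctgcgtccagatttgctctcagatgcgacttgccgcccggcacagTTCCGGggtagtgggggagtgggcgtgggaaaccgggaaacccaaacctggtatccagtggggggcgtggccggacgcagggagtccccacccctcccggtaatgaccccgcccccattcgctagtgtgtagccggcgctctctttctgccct
Rgcc: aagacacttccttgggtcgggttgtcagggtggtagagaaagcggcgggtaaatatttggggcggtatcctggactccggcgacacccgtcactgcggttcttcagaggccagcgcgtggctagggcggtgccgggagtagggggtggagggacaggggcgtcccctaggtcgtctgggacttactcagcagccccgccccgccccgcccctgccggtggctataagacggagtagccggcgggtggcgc
Timp4: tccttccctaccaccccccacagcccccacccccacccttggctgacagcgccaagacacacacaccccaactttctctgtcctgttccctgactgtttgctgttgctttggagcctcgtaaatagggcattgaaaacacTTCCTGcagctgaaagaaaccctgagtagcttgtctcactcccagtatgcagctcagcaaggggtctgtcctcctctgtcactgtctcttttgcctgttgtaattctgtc
Car4: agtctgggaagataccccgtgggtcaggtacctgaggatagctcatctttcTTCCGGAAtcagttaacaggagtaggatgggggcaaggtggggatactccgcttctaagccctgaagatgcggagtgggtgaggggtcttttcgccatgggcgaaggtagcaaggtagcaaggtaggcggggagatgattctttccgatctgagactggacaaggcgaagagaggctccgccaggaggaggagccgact
Kdr had 1 match, 153 bases before the start, Timp4 had 1, at 110 bases, and Car4 had 2 that overlap, from 199 bases before it. Flt1 and Rgcc had neither form in the window. Other forms of the core were not searched. The letters GGAA, common to both forms, occur in the Flt1 window and, on the other strand, in the Rgcc window. Of the 35 capillary and pan-endothelial marker genes listed below, 21 matched the RefSeq table with 27 promoters. Of these promoters, 15 (55.6%) held either form, against 35.1% of all 32851 promoters. A match of 6 letters is a description and not a binding site.

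The label was checked with genes the rule did not use, and these had the pattern of capillaries. Among 15 capillary markers, 14 had at least 100 UMIs in the capillary cells of each library. All 14 were at least 2-fold above endocardial cells in both libraries, where 10.2% of the 3907 genes with that many UMIs were. The background over all other barcodes was 22.8%, and 14 of the 14 passed it too. No list member passed 2-fold over arterial cells, where 0.691% of genes did (27 genes), so these markers do not part the capillary cells from the arterial cells.
Gpihbp1, which moves lipoprotein lipase to the vessel lumen, was at 340 per 1000000 in Sham and 310 in TAC, at 10.8 and 9.91 in all other barcodes, and at 35.4 in Sham endocardial and 340 in Sham arterial cells. Fabp4 was at 1515 and 1422, against 62.0 and 62.1 in all other barcodes. Car4, a carbonic anhydrase on the capillary surface, was at 171 and 125, Rgcc, a cell-cycle regulator enriched in capillaries, at 350 and 293, and Cd300lg at 260 and 285. Aqp1, a water channel, was at 339 and 298 against 101 and 154 in arterial cells and 41.9 and 106 in endocardial cells. After each cell was thinned to 1000 UMIs, which left out 601 cells of each library, capillary cells had UMIs of a median of 4 of the 15 markers (quartiles 2 and 5) in both libraries. In both libraries the median was 3 in arterial cells, 1 in cardiomyocytes, and 0 in endocardial cells, pericytes and fibroblasts. None of the markers was seen in 46 of 941 Sham and 32 of 1225 TAC capillary cells.

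**Figure D1:**
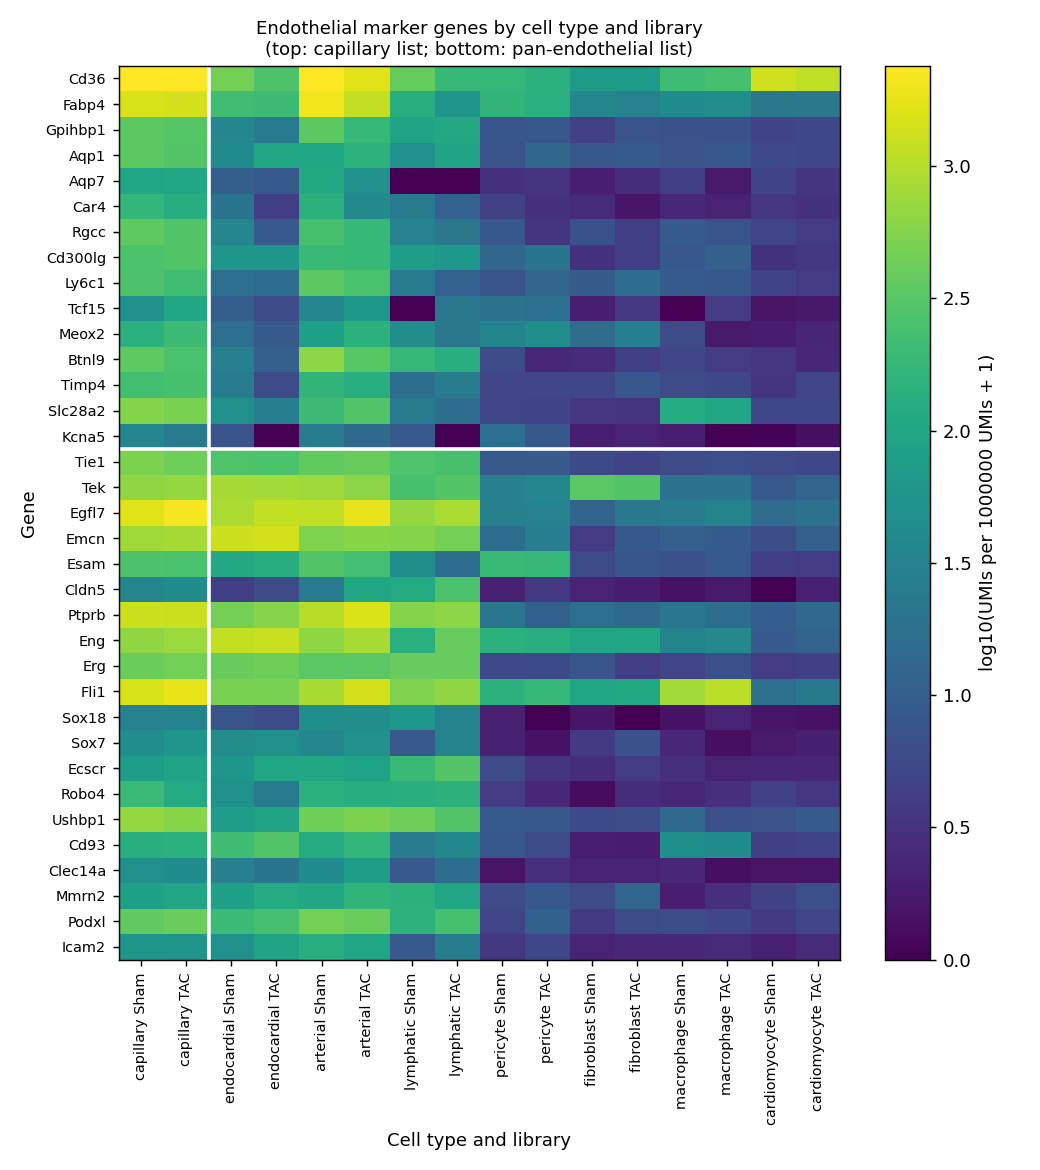
Levels of the capillary and pan-endothelial marker genes, as log10 of UMIs per 1000000 UMIs plus 1, with a column for each cell type and library. The capillary list (top) is high in capillary and arterial cells and lower in endocardial cells, while most pan-endothelial genes (bottom) are high in all 4 endothelial types, Cldn5 and Sox18 being low in endocardial cells.

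Of 20 pan-endothelial genes outside the rule, 17 had at least 100 UMIs in each library, and all 17 were at least 2-fold above all other barcodes. Tie1, a receptor of the angiopoietin pathway, was at 515 in Sham and 427 in TAC capillary cells and at 17.5 and 19.7 in the other barcodes. The ETS factor Erg was at 408 and 450 against 18.4 and 25.1, and Egfl7, a secreted vessel protein, at 1638 and 2133 against 56.6 and 93.4. Venous cells were not removed by the rule. The 7 venous genes summed to 436 in Sham and 510 in TAC capillary cells, below 1260 and 1564 in endocardial cells. Vwf, the von Willebrand factor, was at 118 and 126 per 1000000, and Nr2f2 at 127 and 134, while Ackr1, a venule marker, had 0 UMIs in Sham and 1 in TAC.

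RNA of other cells was present, that of cardiomyocytes most. The pericyte list of 11 genes summed to 536 per 1000000 in Sham and 497 in TAC capillary cells, against 12213 and 13009 in pericytes, with no member at 0. The 13 cardiomyocyte genes summed to 3532 and 2813, against 59830 and 43319 in cardiomyocytes, and 58.4% of thinned Sham and 45.6% of thinned TAC capillary cells had UMIs of at least 3 of them. In the 8 fibroblast genes the sums were 449 and 547, against 3744 and 5506 in fibroblasts, and in the 8 macrophage genes they were 53.7 and 76.4, against 3422 and 3364 in macrophages. The 5 smooth muscle genes were at 84.0 and 128, and 1 TAC cell held 46 of the 79 TAC UMIs of Myh11. The 8 lymphocyte genes were at 12.2 and 35.5, with Cd3e at 0 UMIs in Sham. The cardiomyocyte genes Tnnt2 and Mybpc3 were past 1.5-fold lower in TAC (ratios 0.54 and 0.50), and the fibroblast gene Tcf21 had 7 UMIs in Sham and 0 in TAC. The part of this RNA in the results below was not tested except where given.

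With mitochondrial and ribosomal protein genes left out, the genes with the most UMIs in the capillary cells were, after Malat1 and Rn18s-rs5, Sptbn1, Plcb4, Ptprm, Ebf1, Ablim1, Tcf4, Zbtb20, Tshz2, Mecom, Magi1, Plcb1, Etl4 and Flt1. Their order depends on gene length where reads in introns are counted, which the sources used here do not settle, so their levels are not compared between genes. Sptbn1, a spectrin of the membrane skeleton, was at 4245 in Sham and 3574 in TAC, Ptprm, a phosphatase at cell contacts, at 3408 and 3734, and Mecom, a zinc finger transcription factor, at 2841 and 2711. The mitochondrial rRNA mt-Rnr2, left out of this order, was at 6164 and 4065 (ratio 0.66). In the 15 genes the TAC to Sham ratio lay between 0.84 for Sptbn1 and 1.15 for Zbtb20, with the exception of Rn18s-rs5.

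A further set was higher in capillary cells than in both endocardial and arterial cells in both libraries. The 10 genes with the largest smaller ratio were Trp53i11, Adora2a, Fam102a, Egln1, D830026I12Rik, Nrp2, Cdh23, Notch3, Sdc3 and Gm12002. Egln1, a prolyl hydroxylase that marks HIF proteins for degradation, was at 236 in Sham and 215 in TAC, against 54.8 and 52.1 in endocardial and 95.5 and 90.4 in arterial cells. Nrp2, a semaphorin and VEGF coreceptor, was at 490 and 504, against 213 and 225 in endocardial and 191 and 181 in arterial cells. Trp53i11 was at 124 and 94.3, against 17.9 and 31.6 in arterial cells, which rests on 3 arterial UMIs in Sham. Adora2a, an adenosine receptor, was at 51.3 and 47.1, against 17.9 and 13.6 in arterial cells, again with 3 UMIs in Sham. Notch3 is a pericyte gene, at 1397 in Sham pericytes against 59.5 in Sham capillary cells, and Gm12002 lies opposite Cobl.

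Between TAC and Sham, 6879 genes had at least 100 UMIs in the capillary cells of both libraries together. At least 1.5-fold higher in TAC were 367 of them (5.34%) and at least 1.5-fold lower were 300 (4.36%), and the median log2 ratio was 0.02. These shares are the background for every count of list genes past 1.5-fold given below, and a count of 1 gene in a list is given as a value only. The counting interval left out 1 for 359 of the higher and all 300 lower genes. At 1.5-fold and 100 UMIs such an interval mostly leaves out 1 already, so this count adds no support. Most genes in both directions were protein-coding, and the share of other gene types differed. Among genes that GENCODE M21 does not class as protein-coding, 132 of 354 (37.3%) were higher and 25 (7.06%) lower, while 234 of 6520 protein-coding genes (3.59%) were higher and 274 (4.20%) lower.

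**Figure D2:**
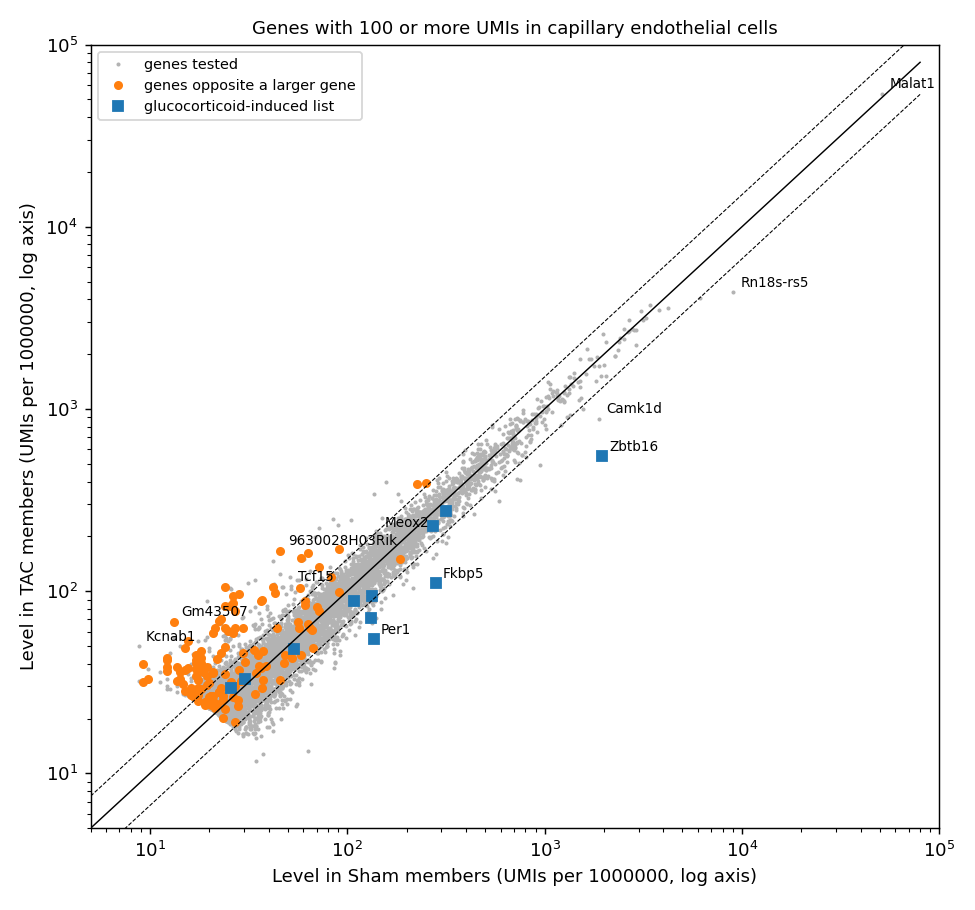
Level of each gene with 100 or more UMIs in Sham (x axis) and TAC (y axis) capillary endothelial cells, in UMIs per 1000000 on log axes, with lines at equality and at 1.5-fold in either direction. Of the genes opposite a larger gene (orange), 75 of 134 lie above the upper line and none below the lower one, and Zbtb16, Fkbp5, Per1 and Camk1d lie below the lower line.

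Genes induced by glucocorticoids were lower in TAC, and their list had the smallest TAC to Sham ratio of those tested. Its 14 genes summed to 3487 per 1000000 in Sham and 1604 in TAC (ratio 0.46, 0.44 to 0.48). Of 11 with at least 100 UMIs, 4 were at least 1.5-fold lower and 0 higher, with a median log2 ratio of -0.29. Over all tested genes 4.36% were lower and 5.34% higher. Zbtb16, a zinc finger repressor and a strong target of the glucocorticoid receptor, had 3998 UMIs in Sham and 1412 in TAC, a level of 1951 and 550 (ratio 0.28, 0.27 to 0.30). Zbtb16 UMIs were seen in 78.2% of thinned Sham and 35.1% of thinned TAC capillary cells, and in 84.5% and 46.8% of fibroblasts thinned alike, with median depths of 1159.5 and 1229.5 UMIs against 2697 and 2570. Unthinned, 79.3% and 43.6% of the capillary cells had one.
Fkbp5, a chaperone that restrains the receptor, had 574 and 285 UMIs (ratio 0.40, 0.34 to 0.46). Per1, a clock gene with glucocorticoid response elements, had 279 and 140 (ratio 0.40, 0.32 to 0.49), and Cdkn1a, the cell-cycle inhibitor p21, had 269 and 182 (ratio 0.54, 0.44 to 0.65). Pdk4, which holds back glucose oxidation, stayed below the UMI minimum with 61 and 28 UMIs (ratio 0.37, 0.23 to 0.58). Sgk1, Klf9 and Nfkbia, also targets, had ratios of 0.87, 0.83 and 0.82, and Cebpd and Mt1 were at 1.09 and 1.14.

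The lower level of this list was also seen outside capillary cells. Its ratio was 0.68 in lymphatic cells, 0.40 in arterial cells and in macrophages, 0.41 in endocardial cells, 0.48 in cardiomyocytes, 0.50 in fibroblasts and 0.56 in pericytes. Without Zbtb16 it was 0.69 in capillary cells (0.65 to 0.72), from 1536 to 1054 per 1000000, 0.53 in macrophages, 0.80 in fibroblasts and 0.86 in pericytes. Within the list, the AGAACA half-site of the receptor, searched on both strands, was in 4 of 22 RefSeq promoter windows (18.2%) of 12 listed genes and in 16.1% of all windows. The clock list as a whole was at 0.90, and Per1 was its only gene past 1.5-fold among 10. Arntl and Clock, the pair that drives the cycle, had ratios of 0.93 and 1.06, and Per2 was at 0.69.

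**Figure D3:**
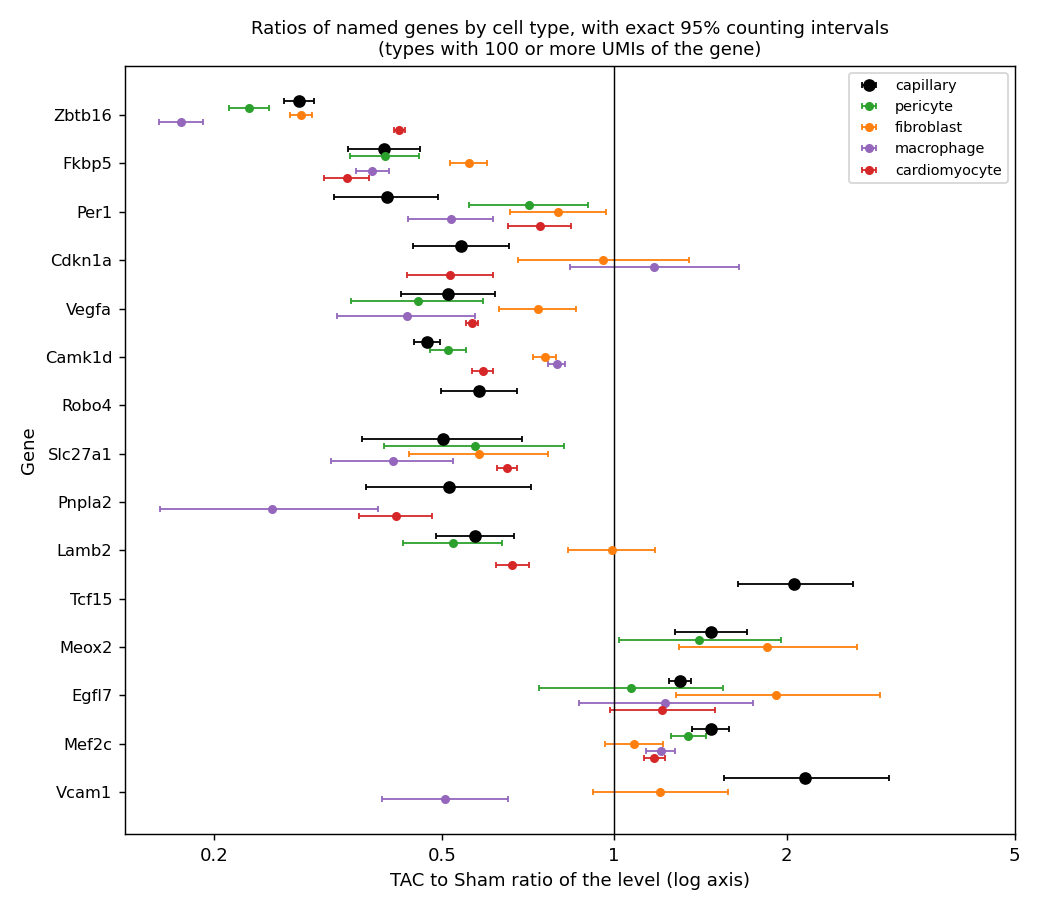
TAC to Sham ratio of 15 named genes (log x axis) in capillary cells and in 4 other cell types, with exact 95% counting intervals, shown where the type had 100 or more UMIs of the gene. Zbtb16 and Fkbp5 lie below 1 in all 5 types, Tcf15 and Robo4 passed the UMI minimum in capillary cells alone of these types, and Vcam1 lies above 1 in capillary cells and below 1 in macrophages.

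Genes with low ratios were named where their Sham capillary level was at or above that of the other Sham barcodes. The TAC level was not checked for them, and Zbtb16 and Fkbp5 are left out by this. The lowest ratios were those of Per1, Skiv2l, Ppox, Pik3ip1, Depp1, Lmf2, Atg2a, Cant1, Mbd6 and Camk1d. Camk1d, a calcium/calmodulin-dependent kinase, had 3859 Sham and 2276 TAC UMIs (ratio 0.47, 0.45 to 0.50), and its ratio was 0.51 in pericytes, 0.59 in cardiomyocytes, 0.76 in fibroblasts and 0.79 in macrophages. Depp1, an autophagy regulator under FOXO control, had 175 and 97 UMIs (ratio 0.44, 0.34 to 0.57). Pik3ip1, an inhibitor of PI3 kinase, had 114 and 62 (ratio 0.43, 0.31 to 0.60). The other 6 of these genes beside Per1 had between 71 and 134 UMIs in Sham and ratios from 0.41 to 0.47.

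Fatty acid uptake, the chief metabolic task of heart capillaries, had the same pooled level in both libraries. Its 19 genes summed to 6942 per 1000000 in Sham and 6946 in TAC (ratio 1.0, 0.98 to 1.02), and of 15 with 100 UMIs, 1 was past 1.5-fold higher and 2 lower. Cd36 was at 2396 and 2326 (ratio 0.97, 0.93 to 1.01), Fabp4 had a ratio of 0.94, Gpihbp1 of 0.91 and Lpl of 0.86, and Pparg, the lipid-sensing receptor, of 1.03. Among the transcription factors that drive uptake, Tcf15 had 106 UMIs in Sham and 274 in TAC, a level of 51.7 and 107 (ratio 2.06, 1.64 to 2.61), in 100 and 235 cells. Meox2, which acts with Tcf15, had 291 and 538 UMIs (ratio 1.48, 1.28 to 1.71), just short of 1.5-fold. The other 2 past 1.5-fold were lower. Slc27a1, a fatty acid transporter, had 105 and 66 UMIs (ratio 0.50, 0.36 to 0.69), with ratios between 0.41 and 0.65 in pericytes, fibroblasts, macrophages and cardiomyocytes. Pnpla2, the triglyceride lipase ATGL, had 96 and 62 (ratio 0.52, 0.37 to 0.72), and its ratio was 0.25 in macrophages and 0.42 in cardiomyocytes.

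The VEGF and angiopoietin list had a pooled ratio of 1.06 (1.03 to 1.09), with 1 gene of 9 past 1.5-fold higher and 1 lower. Vegfa, the main ligand, had 286 and 184 UMIs (ratio 0.51, 0.42 to 0.62), and its ratio was 0.45 in pericytes, 0.43 in macrophages and 0.56 in cardiomyocytes. Angpt2, which opposes TIE2 signalling in activated endothelium, had 31 and 69 UMIs (ratio 1.78, 1.15 to 2.81), spread over 24 and 56 cells. Among the receptors Nrp1 was at 1042 and 1408 (ratio 1.35, 1.28 to 1.43), Tek at a ratio of 1.04, Tie1 at 0.83 and Flt4 at 1.05, and none of them was past 1.5-fold. Robo4, a guidance receptor that stabilizes vessels and belongs to the pan-endothelial list, had 408 and 297 UMIs (ratio 0.58, 0.50 to 0.68). In the tip cell list 1 of 9 genes with 100 UMIs, Angpt2, was past 1.5-fold, and the defining tip cell genes Esm1, Apln and Cxcr4 had 1, 6 and 5 UMIs in Sham and 0, 7 and 3 in TAC. The hypoxia list was at 0.79 (0.75 to 0.83), with Vegfa its 1 gene past 1.5-fold among 8 and Epas1, the endothelial HIF subunit, at 842 and 655 (ratio 0.78, 0.73 to 0.83).

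**Figure D4:**
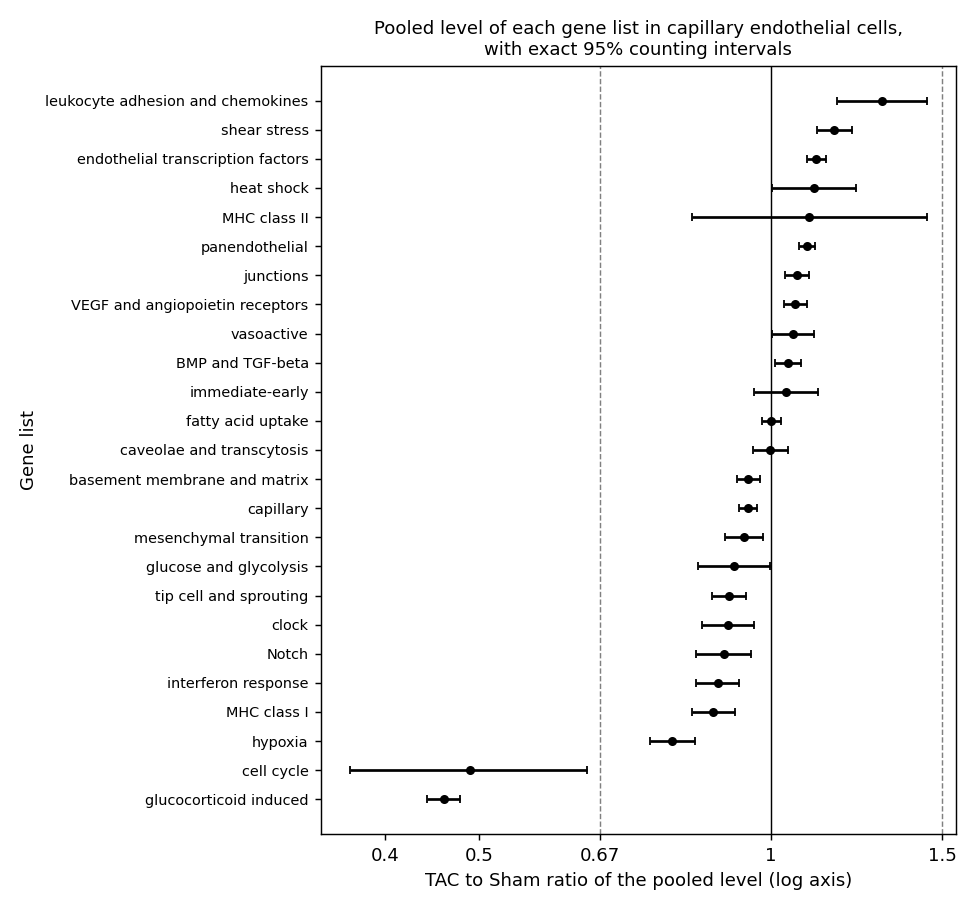
TAC to Sham ratio of the pooled level of 25 gene lists, other-cell markers aside, in capillary endothelial cells (log x axis) with exact 95% counting intervals, and dashed lines at 1.5-fold. The glucocorticoid-induced list (0.46) and the cell cycle list (0.49, on few UMIs) lie past the lower line, and none lies past the upper one.

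The endothelial transcription factor and shear stress lists had pooled ratios above 1, with shear stress at 1.16 (1.12 to 1.21). The shear stress list summed to 1884 per 1000000 in Sham and 2189 in TAC, of which Mef2c, in both lists, held 541 and 797. The ratio of this list was 1.18 in pericytes, 1.16 in macrophages, 1.15 in all other barcodes, 1.09 in cardiomyocytes and 1.02 in fibroblasts. In the list of 18 endothelial transcription factors, 16 had 100 UMIs and 0 was past 1.5-fold in either direction, with a pooled ratio of 1.11 (1.09 to 1.14). Mef2c, which drives KLF2, was at 541 and 797 (ratio 1.47, 1.37 to 1.59), Fli1 at 1511 and 1874 (ratio 1.24, 1.19 to 1.30), and Gata2 had a ratio of 0.76 (0.63 to 0.92). In the shear stress list Klf2, a factor induced by laminar flow, was at 146 and 208 (ratio 1.42, 1.23 to 1.64), while Klf4 was at a ratio of 0.88 and its target Nos3, the endothelial nitric oxide synthase, at 1.15. The cell cycle list, 67 UMIs per 1000000 in Sham and 33 in TAC, had none of its genes above the UMI minimum, and 60.0% of the 15 Top2a UMIs of TAC lay in 1 cell.

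Of the Notch list 8 of 13 genes and of the BMP and TGF-beta list 13 of 16 reached the UMI minimum, and 0 of these were past 1.5-fold, where 5.34% of all tested genes were higher and 4.36% lower. The 13 Notch genes pooled to a ratio of 0.89 (0.84 to 0.95), with the receptors Notch1 and Notch4 at 0.80 and 0.73 and the ligands Dll4 and Jag2 at 1.07 and 0.77. The BMP and TGF-beta list was at 1.04 (1.01 to 1.07). Its target genes Id1, Id3 and Smad7 were at 1.36, 1.27 and 1.28, its ligand Bmp6 at 0.98 and the coreceptor Eng at 1.11. The junction list was at 1.06 (1.03 to 1.10) with 0 of 14 genes past 1.5-fold, and Jam2, Jup and Tjp1 had the ratios 1.32, 1.35 and 1.21. Caveola genes pooled to 1.0 (0.96 to 1.04), with Cav1, the caveolin coat protein, at 1.12. In the vasoactive list Ace, the angiotensin-converting enzyme, was the 1 gene of 11 past 1.5-fold, with 78 and 65 UMIs (ratio 0.67, 0.47 to 0.94). It fell short of 1.5-fold in 4 alternatives, with ratios of 0.68 to 0.72. Calcrl, the adrenomedullin receptor, was at 1.27.

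The list of leukocyte adhesion and chemokine genes pooled to 1.30 (1.17 to 1.45), the highest of the 25 lists in the plot of list ratios. In it 1 of 4 tested genes was past 1.5-fold higher. Its 12 genes had 563 UMIs in Sham and 917 in TAC, most of them in genes other than those named below. The same list was at 1.49 in all other barcodes, 2.01 in pericytes, 1.51 in fibroblasts, 1.48 in endocardial cells, 1.20 in cardiomyocytes, 0.89 in macrophages and 0.71 in arterial cells. Vcam1, the integrin ligand that holds leukocytes, had 52 UMIs in 34 Sham cells and 140 in 91 TAC cells (ratio 2.15, 1.55 to 3.01), and 2.45 without the richest cell of each library. Icam1 had 64 and 118 (ratio 1.47, 1.08 to 2.03), and the selectins Sele and Selp had 0 and 5 UMIs in Sham and 1 and 5 in TAC. The interferon response list was at 0.88 (0.84 to 0.93), with 3 of 20 tested genes past 1.5-fold lower and 0 higher. Over all tested genes 4.36% were lower and 5.34% higher. The same list was at 0.66 in endocardial cells, 0.79 in arterial cells, 0.84 in cardiomyocytes, 0.90 in pericytes, 0.94 in macrophages, 0.98 in fibroblasts and 1.0 in lymphatic cells. Rsad2, the antiviral enzyme viperin, had 381 and 308 UMIs (ratio 0.65, 0.55 to 0.75). Gbp2 was at 0.64 and Cmpk2, the neighbour of Rsad2, at 0.55. With Ryr2 and Myh6 under 0.2%, Cmpk2 fell just short of 1.5-fold. After thinning, Rsad2 UMIs were in 15.1% of Sham and 9.47% of TAC capillary cells, against 0.179% and 0.329% of fibroblasts. The MHC class I list was at 0.87 (0.83 to 0.92), with H2-K1 at 0.77 and H2-D1 at 0.99, and no MHC class II gene reached the UMI minimum (Cd74 had 39 and 47 UMIs).

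Matrix genes pooled to 0.95 (0.92 to 0.97). Lamb2, a laminin chain, was the 1 gene of 16 past 1.5-fold, with 392 and 281 UMIs (ratio 0.57, 0.49 to 0.67), against 0.52 in pericytes and 0.99 in fibroblasts. The collagen IV chains Col4a1 and Col4a2 were at 0.86 and 0.87, and Igfbp7, a vessel matrix protein, at 1.34 (1.24 to 1.46). In the list of mesenchymal transition genes 0 of 5 tested genes was past 1.5-fold, with Zeb1 at 0.89, Vim at 1.08 and Twist1 with 0 UMIs in both libraries. Of the immediate-early genes Egr1 alone passed 1.5-fold among 7, with 99 and 65 UMIs (ratio 0.52, 0.38 to 0.72). Fosb had 62 and 20 UMIs and Nr4a1 26 and 72, both below the minimum, and Dusp1 was at 1.38. Glycolysis genes pooled to 0.92 (0.84 to 1.0) with 0 of 7 past 1.5-fold. Mitochondrially encoded genes pooled to 0.70 (0.69 to 0.72), with 4 of 14 past 1.5-fold lower. Ribosomal protein genes pooled to 0.93, with 5 of 64 higher and 4 lower, where 5.34% of all tested genes were higher and 4.36% lower. Hspd1, a mitochondrial chaperone, was the 1 heat shock gene past 1.5-fold of 6 (35 and 75 UMIs, ratio 1.71, 1.13 to 2.63), and it was at 1.44 with Ryr2 and Myh6 under 0.2%.

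The largest ratios upward belonged mostly to genes without a protein product. The rule on named genes gave Kcnab1, Gm43507, Gm46367, Gm44686, Gm20275, Gm26532, Gm26724, 9630028H03Rik, 1700066B19Rik and Gm17106. Kcnab1, a potassium channel subunit, had 18 UMIs in Sham and 128 in TAC (ratio 5.68, 3.45 to 9.88), with 27 of the 128 in 1 cell, and its ratio was 2.17 without the members that had 2 or more pericyte UMIs. After thinning, Kcnab1 UMIs were in 0.744% of Sham and 1.80% of TAC capillary cells, below 3.22% and 3.78% of fibroblasts.
9630028H03Rik had 94 and 429 UMIs (ratio 3.64, 2.91 to 4.60). It lies on the minus strand at chr2:135325447-135583584 (GENCODE M21, GRCm38), opposite Plcb1, whose own ratio was 1.0. Gm43507 had 27 and 175 UMIs (ratio 5.17, 3.44 to 8.07) and lies at chr5:44641484-44662153 opposite Ldb2, whose ratio was 1.51. Gm46367 had 49 and 271 UMIs and lies opposite Numb.

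This arrangement was counted over all tested genes after these values had been seen. In the capillary cells 134 tested genes overlapped a gene on the opposite strand that had at least 5 times their UMIs. Of these 134, 75 (56.0%) were at least 1.5-fold higher in TAC and 0 were lower, with a median log2 ratio of 0.73, against 291 (4.32%) higher and 299 (4.44%) lower of 6740 other matched genes. Together they were at 4562 in Sham and 7543 in TAC, per 1000000 UMIs (ratio 1.65, 1.61 to 1.69). The larger partners, 122 genes, had a median log2 ratio of 0.10 over the 134 pairs, and in 3 pairs the partner was past 1.5-fold higher and in 2 lower. Gm29237 opposite Sptbn1 had 58 and 248 UMIs while Sptbn1 was at 0.84, and Mecomos opposite Mecom had 31 and 95 while Mecom was at 0.95. The protein-coding genes in this position were higher in 13 of 57 cases (22.8%), among them Ddi1 opposite Pdgfd with 28 and 99 UMIs, and the other gene types in 62 of 77 (80.5%). Away from such partners, genes without a protein product were higher in 70 of 277 cases (25.3%).

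The pattern was not limited to the capillary cells. Tested in the same way, 58.6% of 111 such genes were higher in TAC pericytes, 55.3% of 226 in fibroblasts, 53.6% of 151 in macrophages and 53.2% of 697 in cardiomyocytes, and their pooled ratio was between 1.56 and 1.64 in these types. Whether the counting used strand and introns is not given in the sources used here, so UMIs of such a gene and of its partner may not be separable, and an effect of TAC cannot be told apart from a difference in library preparation.

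**Figure D5:**
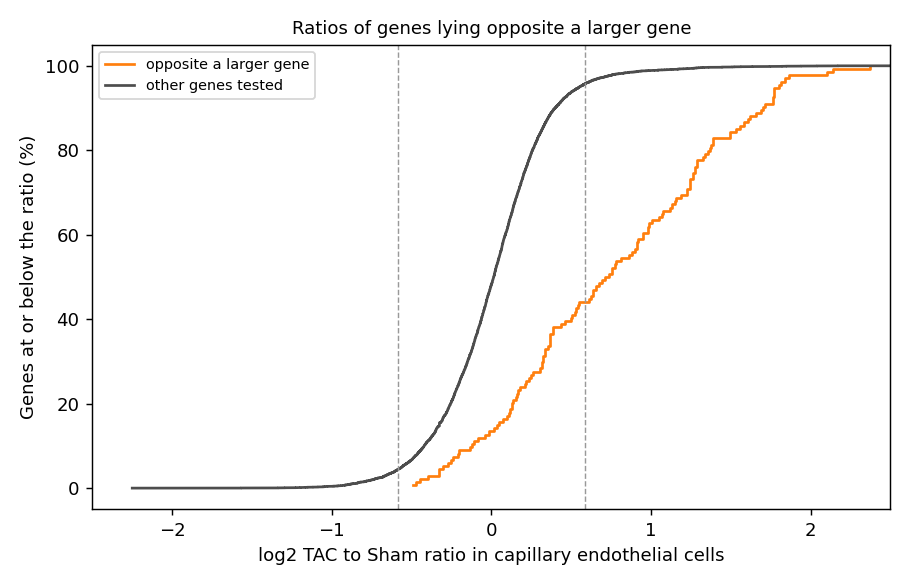
Share of genes (y axis, %) at or below each log2 TAC to Sham ratio (x axis) in capillary endothelial cells, for the 134 genes opposite a larger gene and for the other genes tested, with dashed lines at 1.5-fold. The curve of the 134 genes lies to the right, with 75 of them beyond the upper line.

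Among the protein-coding genes with the highest ratios, Lysmd4, Kcnrg, Manf, Cobl, Agrp and Nxpe2 were chosen after their values were seen. Each overlaps an annotated gene on the opposite strand, while 4930453N24Rik, with 25 and 85 UMIs (ratio 2.71), overlaps none. Of the genes just named, only Kcnrg was among the 134 with a larger partner. How many of all tested genes overlap an annotated opposite-strand gene of any size was not counted. Among the lowest ratios named above, Skiv2l, Ppox, Pik3ip1, Depp1, Mbd6 and Camk1d also overlap such a gene. Per1, Lmf2, Atg2a and Cant1 do not. Lysmd4 had 147 and 573 UMIs (ratio 3.11, 2.59 to 3.76) and overlaps Mef2a, and Kcnrg overlaps Dleu2, one of the larger partners counted above. Cobl, an actin nucleator, had 121 and 380 UMIs (ratio 2.51, 2.04 to 3.10) and overlaps Gm12002, whose ratio was 1.0. Agrp, opposite Ripor1 and Ctcf, had 123 and 384 UMIs (ratio 2.49), with 2.37 in pericytes and 2.13 in cardiomyocytes, and Manf, a stress-induced secreted factor opposite Dcaf1, had 40 and 144 UMIs (ratio 2.87). Nxpe2, opposite Nxpe4, had 281 and 874 UMIs (ratio 2.48).

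The capillary cells also differed among themselves. After thinning to 1000 UMIs, 5190 genes had at least 30 UMIs in each library, and their median ratio of variance to mean was 1.14 in both. The highest ratios in both libraries belonged to Malat1, Rbfox1, mt-Rnr2, Kirrel3, mt-Rnr1, Nebl, Fgf14, Rn18s-rs5, Gpc6, Kcnc2, Prkg1, Eln, Cdh13, Pcdh9 and mt-Cytb. Several of these were higher outside the capillary cells than in them. Gpc6, a fibroblast gene, was at 456 in Sham against 1574 in the other barcodes, and Rbfox1 had 165 of its Sham UMIs, 55.6%, in 1 cell.
Kirrel3 and Kcnc2 were higher in capillary cells than in all other barcodes together, although Kcnc2 was at 519 in Sham endocardial cells. Kirrel3, a cell adhesion protein, was at 217 and 258 against 19.0 and 41.6 in the other barcodes, and its thinned UMIs lay in 7.76% of Sham and 9.80% of TAC capillary cells, against 2.42% and 2.71% of fibroblasts. Kcnc2, a potassium channel, was at 200 and 196 against 10.7 and 22.1, in 9.46% and 9.63% of the cells against 0.179% and 0.575% of fibroblasts. Cdh13, an adiponectin receptor of endothelium, was at 2534 and 2422 and in 72.7% and 71.6% of thinned cells, with variance to mean ratios of 3.53 and 3.24. Eln, elastin, was in 19.3% and 18.8%, below the fibroblast shares of 26.5% and 30.2%.

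Companions of venous and arterial genes were ranked by the smaller of their Sham and TAC folds. A high fold in both libraries is therefore part of how they were chosen and not a separate result. Vwf had a thinned UMI in 66 of 941 Sham and 85 of 1225 TAC capillary cells, against 0.358% and 0.493% of fibroblasts. The venous list was higher in endocardial than in capillary cells, and 49 Sham and 80 TAC members had an endocardial sum of 1. In the cells with Vwf, Myrip had 11.4 times as many UMIs per cell as in those without it in Sham and 6.93 times in TAC, Plekha7 10.1 and 8.38 times, Eln 7.85 and 4.17 times, and Kirrel3 5.10 and 3.86 times. With Nr2f2, in 78 and 131 cells, Vwf was 3.25 and 4.39 times and Col13a1 8.41 and 3.83 times as high. With Efnb2, the arterial ephrin, in 117 and 140 cells, the sialyltransferase gene St8sia6 was 3.02 and 3.10 times and Notch1 2.0 and 1.94 times as high. These genes were chosen for their values in these cells and rest on 10 to 132 UMIs each among the cells with the first gene, and no group of cells was defined from them.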

How the data were processed

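Hearts were dissociated and single cells captured on the 10x Chromium platform with a 3-prime kit (version 3 in the labels, v2 in the paper). For each barcode the authors obtained UMI counts of every gene from Cell Ranger (7.1.0 in the file header and the submitters' processing notes, another version in the paper) and deposited these counts without normalization. The genome build, the intron and strand settings and the barcode filter are not given in the sources used here. Of 55357 gene identifiers, 52081 (94.1%) matched GENCODE M21 (GRCm38).

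The members, gene lists and alternatives were chosen with earlier results of these data known. UMIs were summed over the members of each library and given per 1000000. Ratios had exact conditional binomial, levels exact Poisson and shares exact Clopper-Pearson 95% intervals, which cover counting error only. Genes with at least 100 UMIs over both libraries were tested for 1.5-fold, and with 1 library per condition no p-value was computed. Named genes were the 15 with the highest level, the 10 highest and 10 lowest ratios, the 10 highest over endocardial and arterial cells, list genes past 1.5-fold or with the 2 highest counts, and the 15 most variable. Genes with the highest or lowest ratios had at least 5 UMIs per library and were no mitochondrial, hemoglobin or other-cell marker gene. Their level was not below that of the other barcodes in the library where it was higher. Other genes were chosen after their values were seen. Doublets were marked with Scrublet in scanpy 1.11.5 at 0.8% per 1000 barcodes and kept. Python 3.11.15, numpy 2.4.6, scipy 1.17.1 and pandas 2.3.3 were used, and the steps were tested on simulated data. Alternatives were at least 500 detected genes, doublets removed, at most 25% or 10% mitochondrial UMIs, an endothelial sum of 5 or more, Ryr2 and Myh6 under 0.2%, members with 2 or more pericyte UMIs removed, shared barcodes removed, thinning before the rule, levels without mitochondrial genes, the median gene set to 1, means over cells at 10000 UMIs, minimums of 50 or 400 UMIs, and 2-fold. Leaving out genes with a larger opposite-strand gene was added after the data were seen.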

Additional observations from a re-analysis of the deposited data

Results flagged for a closer look

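Vcam1 stood out because its ratio pointed opposite ways in 2 cell types, past 1.5-fold in each with an interval that left out 1. In capillary endothelial cells the TAC to Sham ratio was 2.149 (1.55 to 3.01, 52 and 140 UMIs), and in macrophages it was 0.507 (0.393 to 0.651). The difference between the types was not tested, as each condition had 1 library.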

How the results depend on the processing

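With 1 library per condition, 1 pooled cell suspension decides every ratio, and depth limits genes below 100 UMIs. No paired analysis was possible because Sham and TAC were each a lone library. The share of barcodes that were members moved out of its counting interval in both libraries with at least 500 detected genes (14.6% Sham, 17.6% TAC), an endothelial sum of 5 (13.7%, 16.8%), Ryr2 and Myh6 under 0.2% (9.42%, 12.9%), members with 2 or more pericyte UMIs removed (14.7%, 17.5%) and thinning to 1000 UMIs before the rule (11.3%, 14.1%), and it was higher in TAC in each. Of genes past 1.5-fold, 783 were higher and 575 lower at a minimum of 50 UMIs and 43 and 52 at 400, and at 2-fold 126 were higher and 30 lower. Without genes opposite a larger gene, an alternative added after the data were seen, 292 were higher and 300 lower. Of the list ratios, the capillary list moved to 0.98 and fatty acid uptake to 1.03, both with pericyte-containing members removed and with means over cells, and the pan-endothelial list to 1.11 with Ryr2 and Myh6 under 0.2%. The other 270 values of the lists stayed within their intervals, and no value changed direction among those past 1.5-fold. Of 49 named genes past 1.5-fold, Ace fell short of it in 4 settings, mt-Rnr2 in 3, and Cmpk2, Fgf14, Hspd1 and Top2a in 1 each.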
